A study of Mus musculus with 18 samples.

Results

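The epidermal growth factor (EGF) receptor gene Egfr was followed in mouse liver together with 9 genes of its signalling circuit: the related receptors Erbb2 and Erbb3, the ligands Egf and Hbegf, and the inhibitors Errfi1, Lrig1, Spry2, Spry4 and Dusp6. All probe sets that the platform annotation assigns to these 10 genes were taken, out of 18193 genes with a single symbol on the array. The 10 genes had 25 probe sets, of which 20 passed the filter on low signal and were tested, and each gene kept at least 1. The genes were chosen from earlier results of these data, in which the Egfr signal was higher in the knockout at 4 weeks and on the mean over the 3 conditions. Genotype values at 4 weeks are therefore given as a description with no test, and the later tests of Egfr are not independent of that choice. Spry4 had also been named in earlier results of these data, so its test is not independent evidence either.

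The livers came from male mice with both copies of Hmgn1 (Hmgn1+/+, wild type) or with none (Hmgn1-/-, knockout). HMGN1 is a nucleosome-binding chromatin protein. Each genotype had 3 conditions of 3 arrays: untreated at 4 weeks, and labelled 12 weeks after either saline or 10 µg of N-nitrosodiethylamine (DEN) per g of body weight, both injected at an age of 4 weeks. DEN is a carcinogen that hepatocytes activate to a DNA-alkylating agent. Per the labels, both genotypes descend from heterozygous crosses and were then bred as separate homozygous lines, so genotype and line cannot be told apart. The labels do not say that each array is a separate animal, so the p-values measure a spread that may be technical, and the 12 weeks, for which the titles name no starting point, are counted from the injection in the design text.

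The EGF receptor is a tyrosine kinase of the plasma membrane that is abundant on hepatocytes, where it carries mitogenic signals during growth and regeneration. Ligands such as EGF and heparin-binding EGF-like growth factor (encoded by Hbegf) bring receptors together in pairs, and the activated receptors switch on the Ras-ERK cascade through adaptor proteins. The signal also induces its own brakes. ERRFI1 (also called MIG6) binds the receptor's kinase domain, LRIG1 promotes receptor degradation, Sprouty proteins (Spry2, Spry4) restrain the cascade, and the phosphatase DUSP6 dephosphorylates ERK.

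The sequences just upstream of Egfr and of the brake Dusp6 are shown. Egfr carries the genotype difference, and Dusp6 was called lower with DEN than with saline in wild type, a call that depended on the processing. Each is the 250 bases before the annotated transcript start in RefSeq, build GRCm38.p6, plus strand, at chr11:16751953-16752202 for Egfr and chr10:99262981-99263230 for Dusp6. Capitals mark matches on either strand to any of 4 motifs: GGGCGG is the core of a GC box, TATAAA the promoter element bound by TBP, CCAAT the element bound by NF-Y, and CCGGAA the core of motifs for ETS factors. The marked matches do not overlap each other.
Egfr: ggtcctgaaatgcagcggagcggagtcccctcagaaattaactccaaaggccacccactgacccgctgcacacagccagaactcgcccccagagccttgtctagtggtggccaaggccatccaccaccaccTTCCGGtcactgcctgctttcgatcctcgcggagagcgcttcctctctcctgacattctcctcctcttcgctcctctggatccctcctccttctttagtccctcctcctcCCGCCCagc
Dusp6: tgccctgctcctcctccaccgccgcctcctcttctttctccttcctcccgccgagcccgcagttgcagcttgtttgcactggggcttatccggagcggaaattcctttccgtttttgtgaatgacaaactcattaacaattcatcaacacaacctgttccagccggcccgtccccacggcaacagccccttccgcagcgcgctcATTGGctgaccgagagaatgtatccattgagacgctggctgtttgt
In Egfr, 1 match to GGGCGG on the minus strand began 9 bases before the start and 1 match to CCGGAA on the minus strand began 119 bases before it. Dusp6 held 1 match to CCAAT, on the minus strand, 46 bases before its start. Neither window held TATAAA. Of 32851 promoter windows of the same length, 32.7% held GGGCGG, 12.4% TATAAA, 33.8% CCAAT and 12.0% CCGGAA on either strand. G and C made up 60.8% of the Egfr window and 56.4% of the Dusp6 window. A match describes these letters and shows no binding.

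Signal was measured as 1 linear intensity per probe set and array, scaled so that the trimmed mean was 150 on every array. The 6 saline arrays stood apart: their highest signal lay between 16720 and 21752, against 46967 to 60173 on the other 12, and the 99th percentile of signal lay at 4742 to 5334 against 6095 to 6995. Summed hepatocyte markers were at 107600 to 137700 on the saline arrays and 236800 to 275600 on the others, while bile duct keratins Krt19 and Krt7 stayed at or below 25.9 on all 18 arrays. Results that use saline arrays are therefore also given after quantile normalization, where every array takes on the same set of values. The Hmgn1 probe set of highest signal read 5039 to 7948 on the 9 wild-type arrays and 4838 to 6894 on the 9 knockout arrays. The extent of the deletion is not given in the sources used here, so this is no test of the genotype labels. Differences below are on the scale of log2(signal + 16), which understates changes at low signal, and a probe set was called when limma's adjusted p over all 27022 tested probe sets was under 0.05.

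At 4 weeks, Egfr signal was higher in the knockout on each of its 3 brightest probe sets. At 1435888_at, the brightest, the wild-type arrays read 1935, 1762 and 1852, and the knockout arrays 6104, 6007 and 6102. The groups did not overlap and the knockout arrays were almost equal, for a difference of 1.71 (SE 0.17) or 3.27-fold. At 1424932_at the wild-type arrays read 1337, 1103 and 1109 and the knockout arrays 2770.1, 3221 and 2956, again with no overlap, for a difference of 1.33 (SE 0.23). A smaller difference of 0.27 (SE 0.10) was seen at 1460420_a_at, where the signals were 732, 689.7 and 697 in wild type and 769.8, 903 and 896 in the knockout. The remaining tested Egfr probe sets were dimmer, with 42.8 to 116 at 1451530_at, 45.5 to 98.6 at 1432647_at and 3.93 to 44.7 at 1454313_at over the 18 arrays, and differed by 0.46, 0.13 and -0.35. The Egfr probe set 1457563_at did not pass the filter. Whether the probe sets report different transcript forms is not annotated in the files, and a level at one probe set cannot be set against that of another. In these bulk livers, fewer cells of a type and less RNA per cell cannot be told apart.

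**Figure D1:**
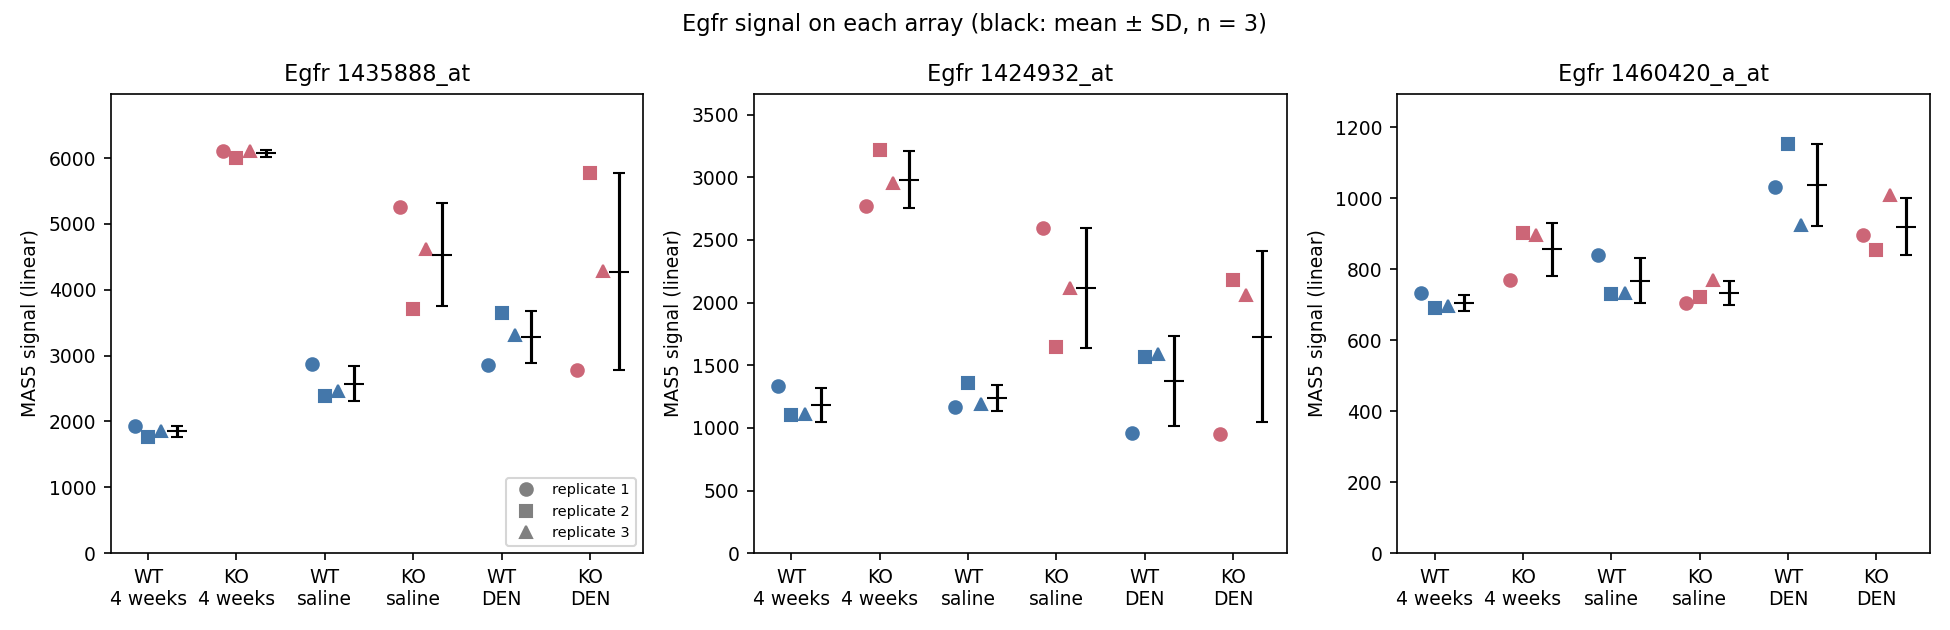
Egfr signal (linear MAS5 intensity, vertical axes from 0) at 3 probe sets in the 6 groups; symbols are arrays (blue wild type, red knockout), black bars the mean ± SD of 3 arrays. At 1435888_at the 4-week knockout arrays lie between 6007 and 6104 and the 4-week wild-type arrays between 1762 and 1935, while knockout replicate 1 with DEN lies at 2777, among the wild-type arrays.

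At 12 weeks the genotypes lay closer together on the same probe sets. With saline, 1435888_at read 2873, 2383 and 2469.8 in wild type and 5262, 3714 and 4622 in the knockout. All knockout arrays were above all wild-type arrays, and the difference was 0.80 (SE 0.17, 95% interval 0.45 to 1.15), or 1.74-fold, with an adjusted p of 0.217. After quantile normalization it was 0.98 (SE 0.16) and was called at an adjusted p of 0.041. The call thus depended on how the saline arrays were scaled. At 1424932_at the saline arrays read 1164, 1355 and 1191 in wild type and 2597, 1642 and 2116 in the knockout. These groups did not overlap either, but the difference of 0.75 (SE 0.23) was not called (adjusted p 0.747). The third bright probe set, 1460420_a_at, gave -0.06 (SE 0.10, adjusted p 0.995).

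With DEN the knockout arrays disagreed among themselves. At 1435888_at the wild-type arrays read 2861, 3650.2 and 3317, and the knockout arrays 2777, 5769.7 and 4280.3. Replicate 1 of the knockout lay below every wild-type array and the other two above them, so that the groups overlapped; the difference was 0.33 (SE 0.17, 95% interval -0.03 to 0.68, adjusted p 0.597). The same array stood out at 1424932_at, where wild type read 957, 1568 and 1587 and the knockout 947, 2179.8 and 2061, for a difference of 0.28 (SE 0.23, adjusted p 0.77). Without knockout replicate 1 the differences were 0.61 (adjusted p 0.153) and 0.66 (adjusted p 0.212). On that array the summed Kupffer cell and macrophage markers were at 4257, against 5756 and 6829 on the other knockout arrays with DEN, and the stellate markers at 5225 against 4879 and 3735; their part in the Egfr values was not tested. Averaged over saline and DEN, 1435888_at was 0.56 higher in the knockout (SE 0.12, adjusted p 0.35) and 1424932_at 0.51 (SE 0.16, adjusted p 0.62). Leaving out knockout replicate 1 with DEN, the array that ran against the difference, gave 0.70 for both, called at adjusted p of 0.00483 and 0.0429. At each probe set this was the only 1 of 12 fits without 1 array that was called, and 0 of 10 other alternatives were called.

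Ordered by the mean at 1435888_at, the groups ran from wild type at 4 weeks (1850 ± 86.5, SD, n = 3) through wild type with saline (2575 ± 262) and with DEN (3276 ± 396) to the knockout with DEN (4276 ± 1496), with saline (4533 ± 778) and at 4 weeks (6071 ± 55.8). The arrays of neighbouring groups overlapped in the middle of this order, from wild type with saline to knockout with saline. Its lowest and highest groups, both at 4 weeks, overlapped with no neighbour. The order therefore had the 12-week groups between the 4-week groups in both genotypes. At 1460420_a_at the order was different, with the highest mean in wild type with DEN (1037 ± 114) and the lowest in wild type at 4 weeks (706 ± 22.5).

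The genotypes were then compared over all tested members. With saline 0 of the 20 tested member probe sets were called by limma (3 at an unadjusted p under 0.05), where 0.0111% of all tested probe sets were called. With DEN 0 were called (2 unadjusted), against 0.00740% of all, and on the mean of saline and DEN 0 were called (4 unadjusted), also against 0.00740%. Under quantile normalization 1 member probe set, that of Egfr above, was called with saline, where 0.0222% of all were. The knockout arrays lay wholly above wild type at 6 member probe sets at 4 weeks, where 10.9% of all tested probe sets did; these were 4 of Egfr, Spry4 1445669_at and Dusp6. With saline 3 did so, all of Egfr, against 10.9% of all. With DEN, Hbegf 1418350_at was the 1 member wholly below wild type, against 6.29% of all. The median difference over the 20 was 0.090 at 4 weeks, 0.079 with saline and -0.032 with DEN, beside 0.022, 0.040 and -0.020 over all tested probe sets. At 4 weeks 2 members, both of Egfr, passed the threshold that 2.26% of all probe sets passed; this is the contrast from which Egfr was chosen.

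Neither partner receptor had a called genotype difference at 12 weeks. Erbb3, a neuregulin receptor that signals through its partners, read 1167 to 1694 at 1434606_at on the 18 arrays. Its genotype differences were small, at 0.03 at 4 weeks, 0.00 after saline and -0.05 after DEN. The 95% intervals of these differences, each taken on its own, lay within -0.24 to 0.22 in the 3 conditions. They rest on the spread between arrays, which may be technical, so they set no bound on a difference between animals. Erbb2, the receptor with no known ligand of its own, stayed near the floor at 5.16 to 39.7, and its differences of 0.38, 0.14 and 0.43 each had an interval that included 0. The second Erbb3 probe set, 1452482_at, did not pass the filter, at 0.907 to 24.4. Between treatments, knockout arrays at 1434606_at read 1568, 1547 and 1616 with saline and 1531, 1167 and 1481 with DEN, with no overlap. That difference was not called on the deposited values but was called lower with DEN after cyclic loess normalization (-0.32, limma adjusted p 0.0257).

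Both ligands were near the floor in these livers. Egf, which is made mainly in other organs such as the salivary gland and kidney, read 3.54 to 26.0 on the 18 arrays and differed between genotypes by -0.10 at 4 weeks, and after saline and DEN by 0.45 and 0.05. Hbegf read 13.3 to 54.7 at 1418349_at and 17.03 to 47.6 at 1418350_at. With DEN the second of these read 24.8, 46.4 and 37.9 in wild type and 17.5, 22.8 and 20.1 in the knockout. The knockout arrays were all lower, yet the difference of -0.52 (SE 0.24) was not called (adjusted p 0.54). These knockout arrays also lay below those with saline (30.9, 30.9 and 47.6). Neither Hbegf probe set was called between DEN and saline on the deposited values. In the knockout 1418349_at was called lower with DEN when DEN replicate 2 was left out (-0.87, limma adjusted p 0.0179).

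Of the inhibitors that act on the receptor, Errfi1 at 1416129_at read 8619 to 15953 over the 18 arrays, and its genotype differences were 0.05 at 4 weeks, 0.00 with saline and -0.02 with DEN. Lrig1 read 210.3 to 372 at 1434210_s_at and differed by 0.07, -0.08 and -0.17, and at 1449893_a_at by -0.02, -0.20 and -0.27; its dim probe set 1419928_at ranged from 1.09 to 55.5. Among inhibitors of the cascade, Dusp6 was 0.25 higher (SE 0.11) in the knockout at 4 weeks, at 742, 626 and 714 against 623, 506 and 616 in wild type, and 0.11 higher when 1 array of each genotype, that with the highest ratio of 3' to 5' Gapdh signal, was left out. At 12 weeks it differed by 0.08 with saline and 0.18 with DEN. Spry4 1445669_at was 0.55 higher (SE 0.23) at 4 weeks, from low signals of 16.6, 33.9 and 32.9 in wild type and 37.0, 63.2 and 43.0 in the knockout, and differed by -0.20 and -0.13 at 12 weeks. The other tested Spry4 probe set gave 0.45, 0.37 and 0.67, and Spry2, at 1.56 to 52.4, gave -0.43, 0.21 and 0.29; no adjusted p of these in the 12-week conditions was below 0.528. The probe sets that did not pass the filter read 2.84 to 28.9 for Spry2 (1421656_at) and 0.850 to 18.3 and 0.781 to 5.57 for Spry4 (1422021_at and 1422020_at).

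**Figure D2:**
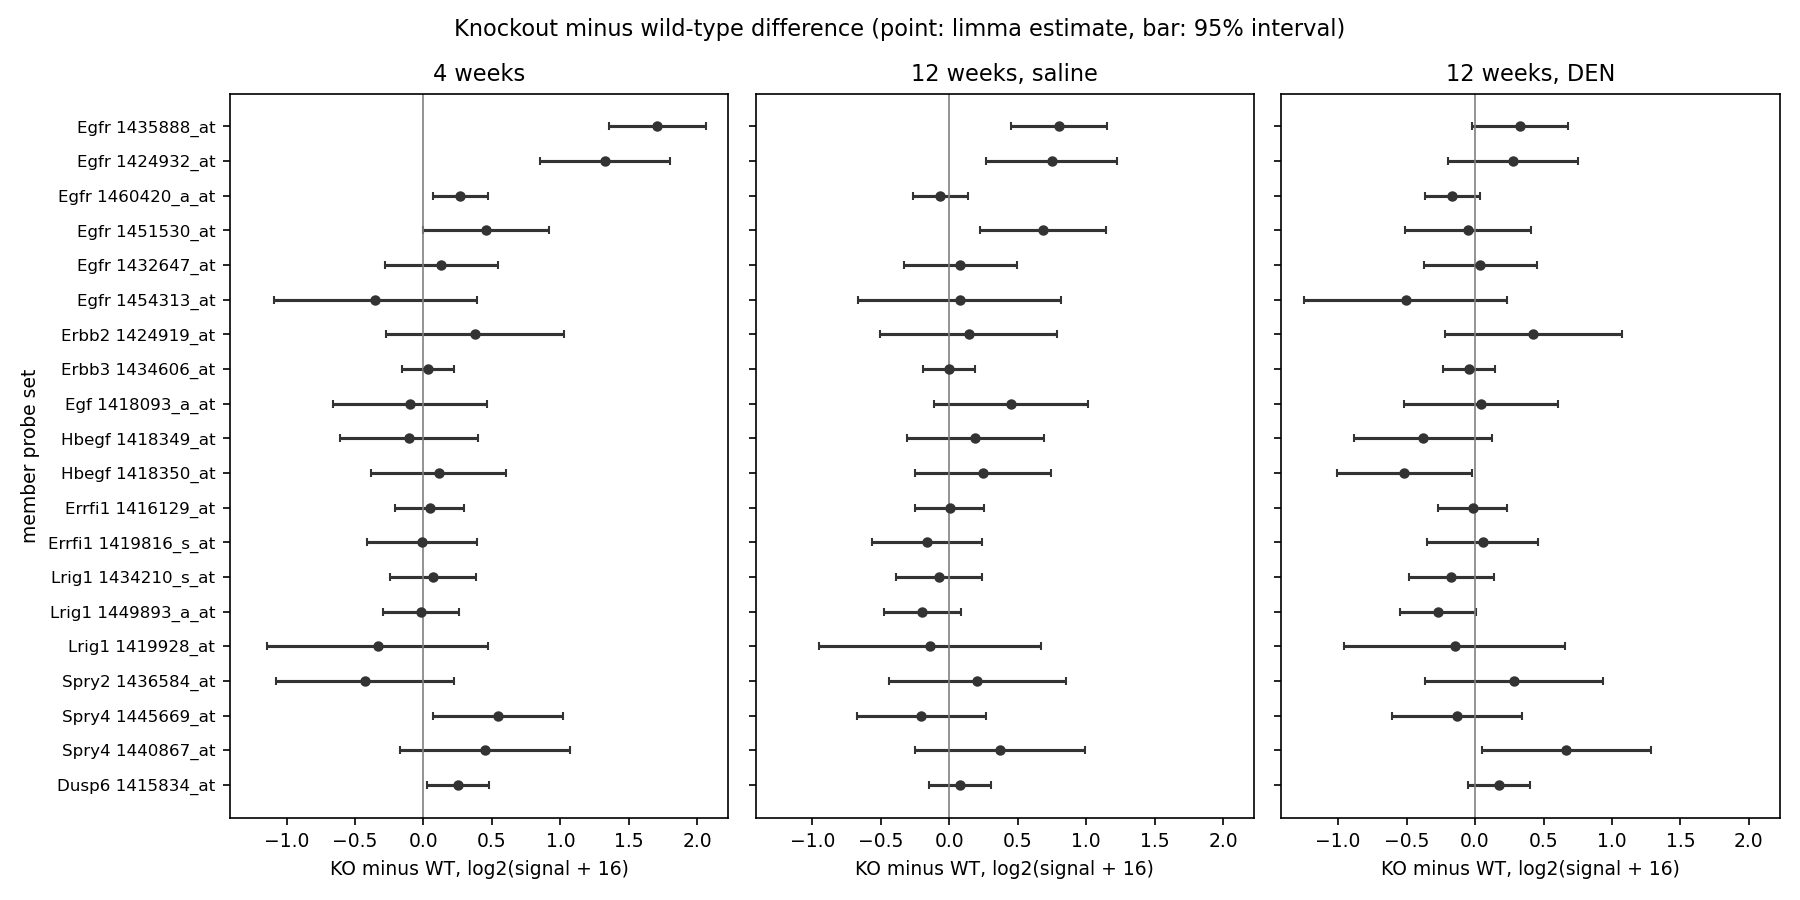
Knockout minus wild-type difference (horizontal axes, log2 of signal + 16) for the 20 tested member probe sets at 4 weeks, with saline and with DEN; points are limma estimates and bars 95% intervals. Egfr 1435888_at stands at 1.71 at 4 weeks and at 0.80 and 0.33 at 12 weeks, while most other members lie near 0 in all 3 panels.

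Summed markers of other liver cells were lower in the knockout at 4 weeks and with saline, the conditions in which the Egfr arrays did not overlap. Summed over 8 Kupffer cell and macrophage markers, the signal was 5086 to 5395 in wild type and 3388 to 3660 in the knockout, and 1 of the 8 was called lower. Over 7 stellate markers it was 4814 to 5013 against 3586 to 3689, with 1 of 7 called lower. Over 6 markers of sinusoidal endothelium it was 2598 to 2645 against 2365 to 2456, with 0 of 6 called and a median difference of -0.033. With saline these sums were 4600 to 5620 against 3819 to 4530 for Kupffer cells, 4186 to 4421 against 3462 to 4144 for stellate cells and 2420 to 2512 against 2209 to 2342 for endothelium, again with no overlap. Yet 0 of the 8, 0 of the 7 and 0 of the 6 markers were called with saline, with median differences of -0.241, -0.164 and -0.128. Clec4f, which defines Kupffer cells, read 435 to 855 over the 18 arrays and the stellate marker Dcn 1850.4 to 3059.7. The brightest markers weigh most in a sum: median signals were 2314 for Dcn and 1389 for the endothelial marker Clec4g. The sum over 10 hepatocyte markers overlapped at 4 weeks, at 236800 to 264200 and 253100 to 275600, and 1 of the 10 was called higher in the knockout. Other sums, all with overlapping arrays, did not fall in both conditions. From wild type to knockout, mean bile duct sums went from 108 to 132 at 4 weeks and from 99.3 to 132 with saline. Mean lymphocyte sums went from 72.7 to 77.5 and from 89.0 to 99.8, and erythroid sums from 746 to 812 and from 564 to 509. The part of these shifts in the Egfr differences was not tested.

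DEN was compared with saline within each genotype, which asks how the circuit looked in livers exposed to the carcinogen. In wild type 3 of 20 member probe sets were called, where 6.54% of all tested probe sets were: 1 of Egfr rose, and 1 each of Spry4 and Dusp6 fell. In the knockout 2 of 20 were called, of Egfr and Spry4, where 15.1% of all were, so that the knockout count was no larger than the share over the whole array. After quantile normalization 3 member probe sets were called in each genotype, against 3.64% and 10.9% of all. The arrays with DEN lay wholly above saline at 1 member probe set in wild type (12.2% of all) and 2 in the knockout (12.8%), and wholly below at 3 (13.6%) and 5 (21.1%). Hepatocyte markers moved with this contrast, 9 of 10 being called higher with DEN in wild type and 8 of 10 in the knockout, with medians of 1.01 and 1.02. In the knockout 3 of 8 Kupffer cell, 1 of 7 stellate and 1 of 6 endothelial markers were also called higher with DEN, and the 1 tested erythroid marker was called higher in both genotypes. Their part in the members' differences was not tested, and the saline arrays' compressed upper range and the treatment cannot be told apart.

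Spry4 1445669_at gave the largest fall among the members in both genotypes. With saline it read 123, 111 and 67.3 in wild type and 70.4, 97.7 and 81.8 in the knockout. With DEN the signals were 39.99, 42.6 and 33.4 in wild type and 32.5, 24.7 and 46.7 in the knockout. The arrays did not overlap in either genotype. Spry4 fell by 1.06 (SE 0.23, adjusted p 0.00566) in wild type and by 0.99 (SE 0.23, adjusted p 0.0052) in the knockout. After quantile normalization the falls were -1.05 (adjusted p 0.0126) and -0.87 (adjusted p 0.0163). The other tested Spry4 probe set, 1440867_at, at 5.86 to 39.5, did not show it (-0.24 and 0.06, adjusted p 0.734 and 0.928), and the remaining Spry4 probe sets did not pass the filter. The 4-week arrays, at 16.6 to 63.2, were nearer to the level with DEN than to that with saline.

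Dusp6 was lower with DEN by a smaller amount. Wild-type arrays read 683, 639 and 633 with saline and 531, 506 and 447 with DEN, and knockout arrays 738, 662 and 667 against 601, 611 and 477. The groups did not overlap in either genotype. In wild type Dusp6 fell by 0.39 (SE 0.11, adjusted p 0.034), but the call was lost after quantile normalization (-0.33, adjusted p 0.0998). It was also lost with cyclic loess normalization (-0.33, adjusted p 0.0917), with no intensity trend (adjusted p 0.0887) and in 5 of 6 fits that left out 1 array. The call was kept in 7 of 10 alternatives. In the knockout the difference was -0.29 (SE 0.11, adjusted p 0.0785). Spry2, near the floor, was lower with DEN on every array of both genotypes, with differences of -0.78 (adjusted p 0.154) and -0.70 (adjusted p 0.141) that were not called.

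In this contrast 1 Egfr probe set passed the test in both genotypes and the others did not. At 1460420_a_at wild type read 840.1, 731 and 732 with saline and 1031, 1154 and 925 with DEN, and the knockout 706, 723 and 769 against 897, 855 and 1008. No array with DEN lay below an array with saline of the same genotype. The signal rose by 0.42 (SE 0.10, adjusted p 0.00901), or 1.34-fold, in wild type and by 0.32 (SE 0.10, adjusted p 0.0293) in the knockout, with 0.46 and 0.31 after quantile normalization (adjusted p 0.0114 and 0.0413). The difference stayed positive in every fit that left out 1 array, between 0.34 and 0.50 in wild type and between 0.25 and 0.37 in the knockout. The call was lost without replicate 2 of either wild-type group, and in the knockout without replicate 1 or 3 with DEN or replicate 1 or 2 with saline (adjusted p up to 0.125). The brightest probe set, 1435888_at, gave 0.34 in wild type (SE 0.17, adjusted p 0.271) and -0.13 in the knockout (SE 0.17, adjusted p 0.662), where quantile normalization gave 0.23 and -0.48. The direct test of the DEN response between genotypes gave -0.47 (SE 0.24, 95% interval -0.97 to 0.02, adjusted p 0.634) at this probe set. It called 0 of 20 members by limma (2 at an unadjusted p under 0.05) and 0% of all 27022 probe sets (2170 unadjusted).

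Errfi1 1416129_at could not be given a direction between DEN and saline that held over the normalizations. At 1416129_at wild type read 10176, 8619 and 11099 with saline and 15953, 10656 and 12649 with DEN; the knockout read 9880, 10371 and 9594 against 14712, 12849 and 10972. On the deposited scale the arrays with DEN were higher, by 0.38 (adjusted p 0.066) and 0.36 (adjusted p 0.0503), with no overlap in the knockout. After quantile normalization the differences were -0.37 (adjusted p 0.0394) and -0.39 (adjusted p 0.0161), with the opposite sign. Other alternatives called 1416129_at higher with DEN. In the knockout these included centred array medians (0.47, adjusted p 0.0229) and the fit without DEN replicate 3 (0.47, adjusted p 0.0203). In wild type they were the fits without DEN replicate 2 (0.52, adjusted p 0.0132) or saline replicate 3 (0.46, adjusted p 0.0452). This probe set lies in the upper range where the saline arrays were compressed. The dimmer 1419816_s_at gave 0.33 and 0.55 on the deposited scale and 0.31 and 0.45 after quantile normalization, not called in any of the 4. In the knockout it was called with centred array medians (0.66, adjusted p 0.0359) and without DEN replicate 3 (0.78, adjusted p 0.00921).

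**Figure D3:**
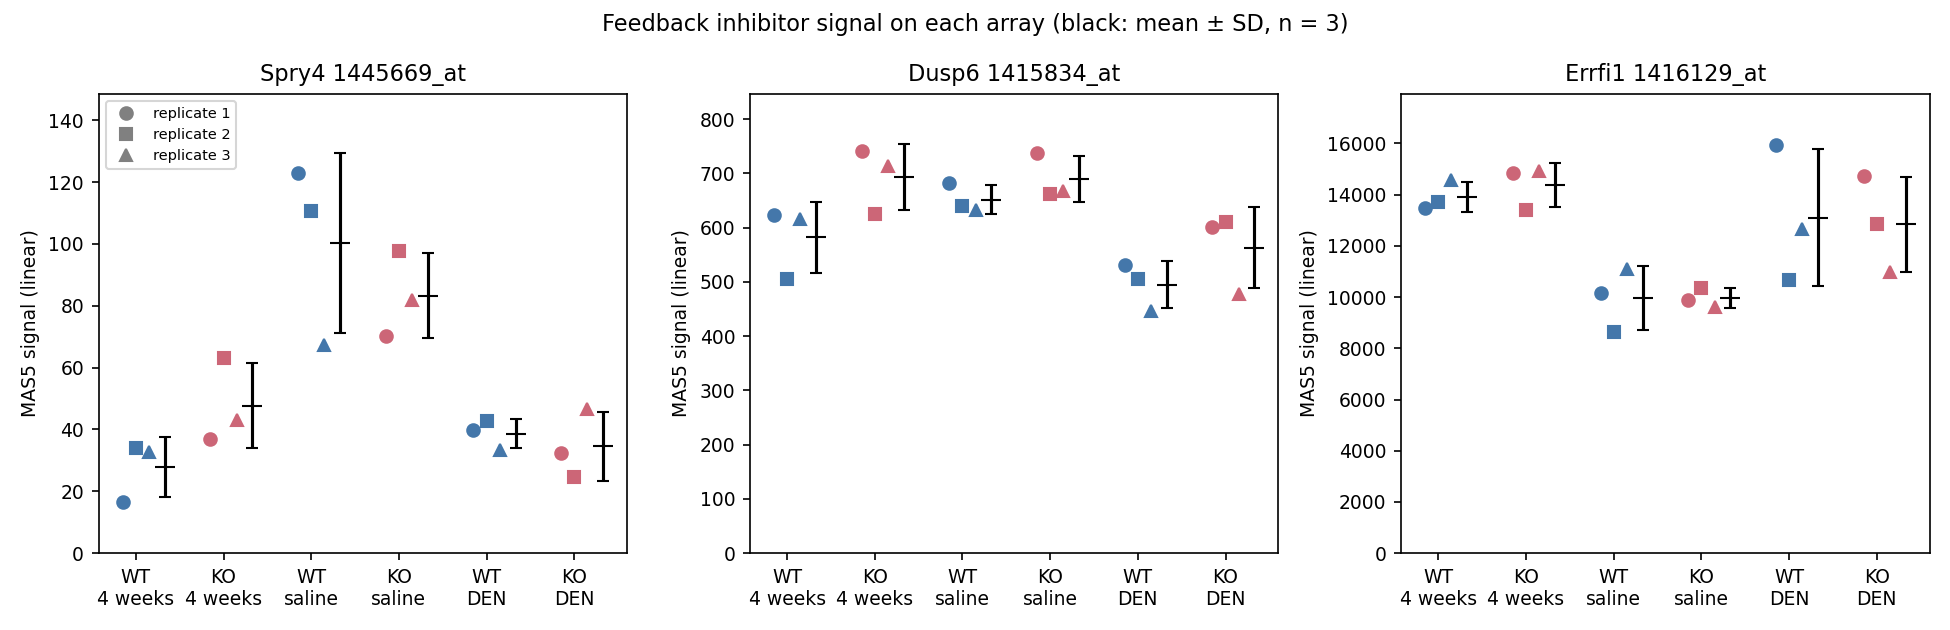
Signal of the inhibitors Spry4, Dusp6 and Errfi1 (linear MAS5 intensity, vertical axes from 0) in the 6 groups; symbols are arrays (blue wild type, red knockout), black bars the mean ± SD of 3 arrays. Spry4 stands at 67.3 to 123 with saline and at 24.7 to 46.7 with DEN, and Errfi1 has its lowest group means with saline on this scale.

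**Figure D4:**
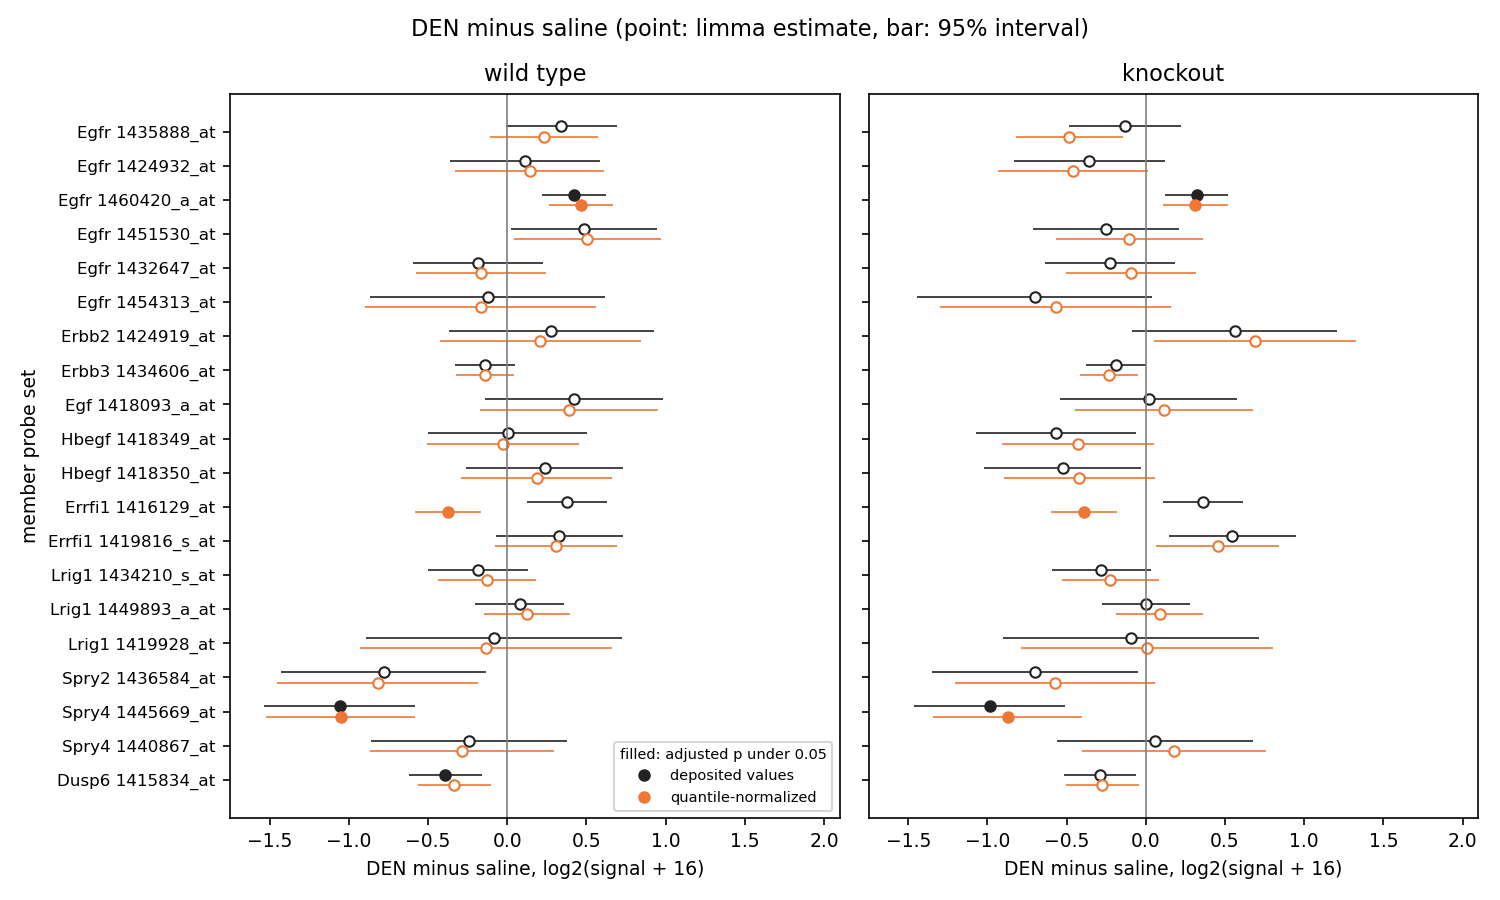
DEN minus saline (horizontal axes, log2 of signal + 16) for the 20 tested member probe sets in wild type and knockout, from deposited values (black) and after quantile normalization (orange); points are limma estimates, bars 95% intervals, and filled points have an adjusted p under 0.05. Spry4 1445669_at and Egfr 1460420_a_at are filled on both scales in both genotypes, while Errfi1 1416129_at changes side between the scales.

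The surrounding pathway was read through 77 other genes, listed with earlier results of these data known: 71 had a probe set, 60 were tested at their probe set of highest mean, and 6 were not analysed here. Between genotypes 0 of the 60 were called with limma at 12 weeks, with saline (3 at an unadjusted p under 0.05), with DEN (4) or on their mean (4). Their median difference was 0.099 with saline and -0.045 with DEN, beside 0.024 and -0.006 over all 12896 genes. At 4 weeks, again as a description, 7 passed the threshold upwards and 0 downwards, against 230 and 167 of all genes. Of these, 4 are transcripts that ERK signalling induces: Egr1 (2.03), Ier2 (0.99), Junb (0.82) and Mcl1 (0.45). Egr1, an immediate-early transcription factor, read 398, 435 and 492 in wild type and 1849.5, 1660.2 and 2029.5 in the knockout. The others were the Ras-ERK inhibitor Spred2 (0.61), the transcription factor Stat3 (0.52) and the GTPase Nras (0.44). Egr1 was as high as 1486 on 1 wild-type array with saline and 1339 on 1 with DEN, and replicate 1 was the highest array in each of the 4 groups at 12 weeks. Other ErbB ligands had 5 tested genes, of which none was called in any of the 12-week comparisons; Tgfa was the brightest, at 98.7 to 202, and Btc read 20.7 to 67.1. Erbb4, the remaining receptor, did not pass the filter.

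With DEN against saline, 1 pathway gene rose and 3 fell in wild type, and 1 rose and 9 fell in the knockout. Over all genes 492 rose and 410 fell in wild type, and 997 rose and 969 fell in the knockout. In all, 4 and 10 of the 60 were called, where 902 and 1966 of all 12896 genes were. The pathway shares were thus close to those over all genes. The gene that rose in both was Ptpn1, a tyrosine phosphatase that acts on receptors (0.48 and 0.47). Adam10, a protease that releases membrane-bound ligands, fell in both: it read 869.98, 840.1 and 772 with saline and 559, 611 and 537 with DEN in wild type, a fall of 0.53 (SE 0.09, adjusted p 0.000928), and fell by 0.52 (SE 0.09, adjusted p 0.000527) in the knockout. In wild type the receptor ubiquitin ligase Cbl also fell by 0.70 and Nras by 0.49. In the knockout the adaptor Grb2 (-0.38), the kinase Map2k1 (-0.33), the scaffold Ksr1 (-0.98), the inhibitors Spred2 (-0.45) and Socs4 (-0.38), and the ERK-induced Fos (-1.24), Jun (-0.65) and Ccnd1 (-0.52) fell. Untreated 4-week means lay nearer to DEN than to saline for Ptpn1 and Adam10 in both genotypes. The same held for Nras in wild type and for Grb2, Map2k1 and Jun in the knockout. Those of Cbl in wild type and of Ksr1, Spred2, Socs4, Fos and Ccnd1 in the knockout lay nearer to saline. Knockout means at 4 weeks, with saline and with DEN were 282, 198 and 280 for Ptpn1 and 72.2, 58.9 and 17.1 for Fos. After quantile normalization the wild-type count stayed at 4 and that of the knockout was 6 in place of 10. Over all 12883 genes 488 and 1468 were then called, so the knockout share was no larger than that over all genes. In the knockout 1 ERK-induced transcript was then called lower in place of 3. Adaptors and cascade genes had 2 in place of 3, and other feedback inhibitors 1 in place of 2. The knockout count lay between 3 and 5 when any 1 of its saline arrays or of its DEN replicates 2 and 3 was left out, and was 10 without DEN replicate 1. The direct test between genotypes called 0 of the 60 with limma (1 unadjusted), so none of these was shown to respond differently in the knockout.

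The genes whose pattern was most like that of Egfr were ranked by Pearson's r with 1435888_at over the log2 values of the 18 arrays. Id3, an inhibitor of DNA-binding transcription factors, had the highest r, of 0.974. It was followed by Id2 (0.888), Id1 (0.886), Bloc1s4 (0.870) and Gnl3 (0.865). Id3 read 334, 306 and 346 in wild type and 798, 901 and 934 in the knockout at 4 weeks, and with DEN its knockout replicate 1, at 542, was the lowest of its group as for Egfr. The lowest r belonged to Aacs (-0.919), which activates ketone bodies for lipid synthesis, Sqle (-0.862), an enzyme of cholesterol synthesis, Pltp (-0.859), a phospholipid transfer protein, Fasn (-0.854), the fatty acid synthase, and Gngt1 (-0.848). Without the saline arrays Id3 (0.975) and Aacs (-0.913) remained first, and 2 of the 5 highest and 3 of the 5 lowest were shared. These values describe 18 arrays that share group differences and scaling, and carry no test. Of the members' other probe sets, Egfr 1424932_at had an r of 0.890, 1451530_at of 0.716, 1460420_a_at of 0.320, 1432647_at of 0.255 and 1454313_at of -0.368, and those of the remaining 9 genes lay between -0.342 and 0.471.

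**Figure D5:**
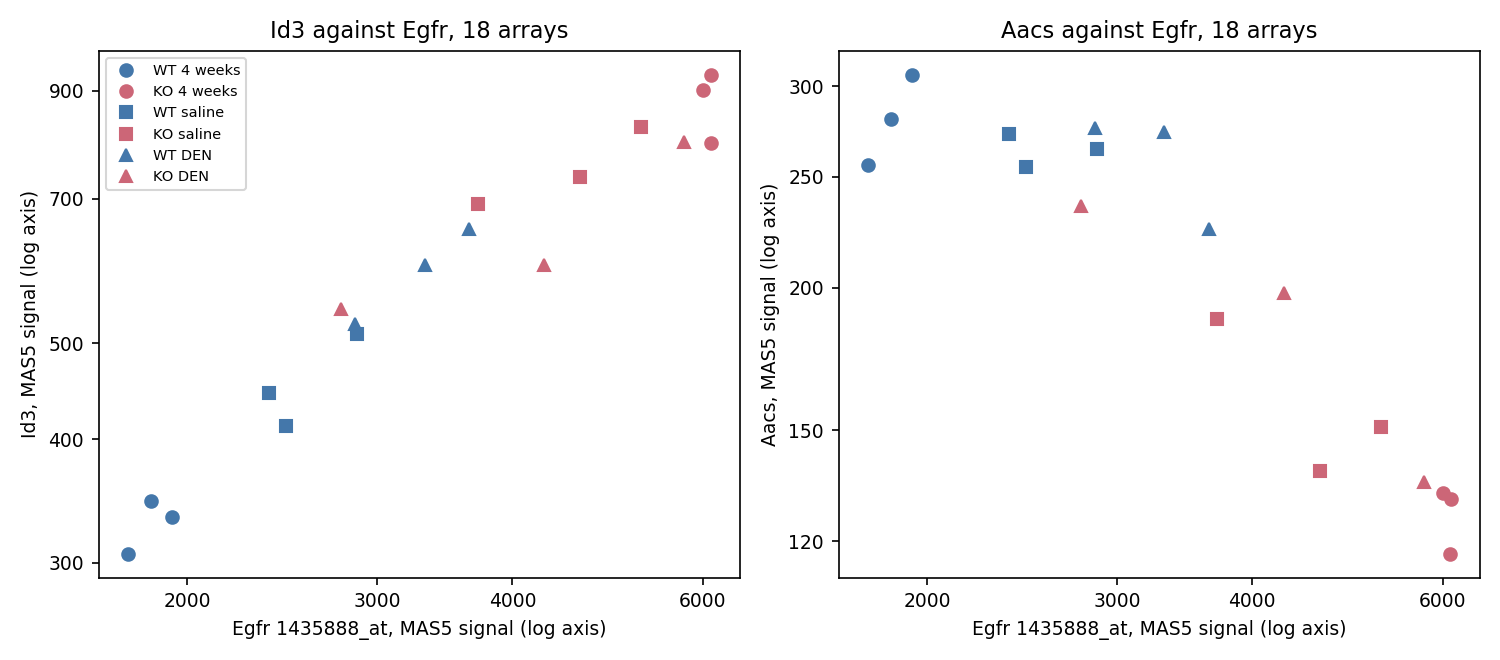
Signal of Id3 (left) and Aacs (right) against Egfr 1435888_at on the 18 arrays (both axes log scale, MAS5 intensity; colour genotype, shape condition). Id3 is high where Egfr is high (r 0.974) and Aacs low (r -0.919), and knockout replicate 1 with DEN lies near the wild-type arrays in both panels.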

How the data were processed

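The deposited values are linear intensity values, 1 per probe set and array, from RNA of frozen liver labelled for Affymetrix GeneChip arrays per the labels' protocols. Per the submitters' processing notes the authors made them with MAS5; its version, the genome build and the scaling target are not given in the sources used here. Recomputed without the outer 2% on each side, the mean was 150 on each array. MAS5 signals are noisy near the floor, and scaling by 1 factor per array does not correct a compressed upper range. No read depth applies; 3 arrays a group limit the precision.

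From 45101 probe sets, 64 controls were removed, 16 was added and log2 taken. Probe sets with a mean below the 40th percentile (4.979) were left out, which kept 27022. limma 3.58.1 in R 4.3.3 fitted 1 coefficient per group to 18 arrays (12 residual degrees of freedom, eBayes with an intensity trend), two-sided, with Benjamini-Hochberg adjustment over all tested probe sets; the fit was tested on simulated data. Of 45037 probe sets, 34945 have 1 gene symbol in the platform annotation, which can be old, 932 several and 9160 none. Groups came from the titles. The text names all member probe sets, pathway genes that passed or else the 2 brightest of a list, and the 5 genes most and least like Egfr. Members and lists were chosen with earlier results of these data known. Same-numbered arrays did not pair: correlations of their deviations over 45 pairs ran from -0.098 to 0.116. Alternatives were 3 normalizations, adding 1 or 64, no filter or the 60th percentile, no trend, a replicate block, fewer arrays, and leaving out each array.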

Additional observations from a re-analysis of the deposited data

Results flagged for a closer look

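Egfr at 1435888_at lay on opposite sides of its 4-week level in the 2 genotypes at 12 weeks. The 4-week livers were untreated and all later ones came from injected mice, so time and injection cannot be told apart. The saline arrays also had the compressed upper range described above. From 4 weeks to 12 weeks with DEN the log2 difference was 0.81 in wild type and -0.57 in the knockout, with every array of the later group above every 4-week array in wild type and below in the knockout. From 4 weeks to 12 weeks with saline it was 0.47 in wild type and -0.43 in the knockout, with no overlap in either genotype. Both contrasts use the 4-week arrays from whose genotype difference Egfr was chosen, so these values are a description. The other bright Egfr probe sets did not all share the pattern. At 1424932_at the differences were 0.18 with DEN and 0.07 with saline in wild type and -0.87 and -0.51 in the knockout, and at 1460420_a_at 0.54 and 0.12 in wild type and 0.10 and -0.22 in the knockout. The difference between the genotypes was not tested.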

How the results depend on the processing

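Of 2132 recomputed values for 120 tested differences of member probe sets, 2098 kept direction and side of the threshold or stayed uncalled (127 of these changed sign while uncalled), 17 lost a call, 15 gained one and 2 reversed: Errfi1 1416129_at, DEN minus saline, at -0.37 (adjusted p 0.0394) in wild type and -0.39 (adjusted p 0.0161) in the knockout after quantile normalization, which also turned its difference of saline from 4 weeks to 0.29 and 0.21. Quantile normalization also called 1 member probe set between genotypes with saline, Egfr 1435888_at at 0.98; over the other alternatives that difference ran from 0.67 to 0.94 and was uncalled. The 4-week Egfr difference at this probe set stayed between 1.67 and 1.74 in all alternatives. Leaving out 1 array gave 0 to 2 called members for the genotype difference averaged over saline and DEN (2 without knockout replicate 1 with DEN), 1 to 3 for DEN minus saline in wild type (1 without wild-type saline replicate 2) and 1 to 3 in the knockout (1 without knockout DEN replicate 1, or knockout saline replicate 1 or 2). In the knockout the count was 4 with centred array medians and 1 with no intensity trend. Spry4 1445669_at kept its fall with DEN in all 10 other alternatives and all 6 fits without 1 array in each genotype; Egfr 1460420_a_at kept its sign in all of them (0.34 to 0.50 in wild type, 0.25 to 0.43 in the knockout) and its call in 9 of 10 and 4 of 6 in wild type and in 8 of 10 and 2 of 6 in the knockout. With the replicate block, the genotype difference of Egfr 1435888_at with DEN was 0.33 (adjusted p 0.628); 2 of 45 same-number pairs correlated above 0.1 and 6 of 18 arrays were closest to their own number, so the numbers do not pair the arrays. Over all probe sets, calls for DEN minus saline ran from 2881 to 4186 in the knockout (2501 to 3433 without 1 array) and from 983 to 1999 in wild type (957 to 1870); between genotypes from 180 to 704 at 4 weeks (269 to 591), 1 to 9 with saline (0 to 6), 0 to 2 with DEN (0 to 4) and 0 to 2 on their mean (0 to 8); the difference between the responses gave 0 (0 to 2 without 1 array). The causes were not tested. MAS5 signals near the floor (Egf, Erbb2, Hbegf, Spry2 and most of Spry4) limit what could be seen for those genes.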
